A study of Homo sapiens with 4 samples.

Results

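Hep3B is an established line of human hepatocellular carcinoma cells, and the array described here measured its RNA under a mock hairpin, which has no named target. This array is 1 of 4 in the series and was chosen by its sample label. It measured 42405 probes other than controls, which carried 32815 gene names, and 20041 genes could be given a symbol of the RefSeq table. The study compared Hep3B cells that carried plasmids for the hairpin shR-MOCK with cells that carried a hairpin against UNC50 (shR-467, shR-554 or shR-749), a protein of the Golgi membrane. Every group was selected with puromycin at 1 µg/ml, controls included, and each has 1 array and no replicate, so no difference was tested and no p-value is given. The study gives the line as lacking the RB gene and as having a background of hepatitis B virus infection, features that every group shares. The signals come from a culture as a whole, in which fewer cells of a type and less RNA per cell cannot be told apart. The 3 knockdown arrays are used here to show how far the order of signals held between arrays, with unscaled signals of some genes beside it. Their differences from the mock array include those of the hairpins.

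The hepatocyte is the secreting and metabolising cell of the liver. It makes most proteins of blood plasma, turns ammonia into urea, releases glucose in fasting, makes bile acids and modifies drugs for excretion. Its genes are held on by a set of transcription factors that bind together in its promoters, HNF4A, CEBPA and the FOXA factors among them. In the fetal liver some genes, such as AFP, IGF2, H19, GPC3 and DLK1, are active that fall silent after birth, and hepatocellular carcinomas often express them again.

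Each probe is a DNA oligonucleotide of 60 bases for 1 transcript. Its value was the mean log2 of the background-subtracted signal of its spots, here printed as scanner signal, and its percentile is the share of all probes on that array with a signal at or below it. A percentile orders the signals of probes. Probes bind with different strength, so it does not order amounts of RNA between genes. A probe counted as detected when the scanner software marked more than 0.5 of its spots as well above background, and a gene when any of its probes was. The gene took the level of its brightest detected probe. A gene was called bright when detected and above the 90th percentile, middle when at or above 251, the median signal of all detected probes, and dim when detected below it.

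Under the mock hairpin 70.6% of all probes and 77.6% of the genes with a RefSeq symbol were well above background, and 17.2% of these genes were bright. The detected share of probes was higher than on the other 3 arrays, where it was between 64.0% and 66.9%. Probe signals ran from 4.19 to 382000 with a median of 81.5, and 4407 probes lay in the lowest bin of the plot of signals, against the floor of the scanner's processed signal, where the order of probes carries no information. No spot was saturated. Between the 10 spots of a probe the median SD was 0.059 on the log2 scale, which is the error of the array surface and not of the culture.

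**Figure D1:**
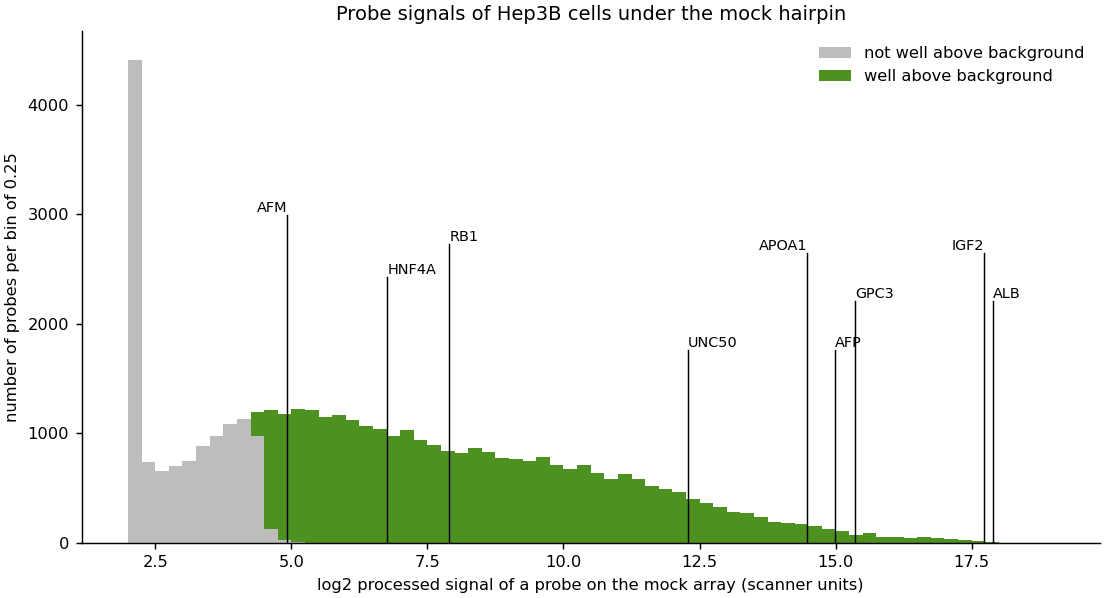
Number of probes (vertical axis, per bin of 0.25) by log2 processed signal on the mock array (horizontal axis), with probes not well above background in grey and those well above it in green stacked on them. Black lines mark named probes: ALB, IGF2, GPC3, AFP and APOA1 lie in the right tail above the 97th percentile, while AFM lies near the lower end of the detected probes and the lowest bin holds 4407 probes.

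The defining markers of the line were all bright. ALB, serum albumin and the main protein of plasma, gave a signal of 244338 with an SD of 0.15 log2 units between 2 spots, at percentile 99.98. AFP, the fetal counterpart of albumin and the serum marker of hepatocellular carcinoma, gave 32590 at percentile 98.58. GPC3, a heparan sulfate proteoglycan anchored in the membrane and common on hepatoma cells, gave 41848 at percentile 98.91, and APOA1, the main protein of high-density lipoprotein, 22800 at percentile 97.90. On the 3 knockdown arrays these 4 probes stayed between the percentiles 98.69 and 99.99, so the label of a hepatoma line was borne out by its markers on every array. The probe sequences below show which part of each transcript was read, and those of ALB, APOA1 and GPC3 lie in coding sequence. Positions are on hg19 as the array's own annotation gives them, and it gives none for the ALB probe. The APOA1 probe lies at chr11:116706641-116706700 on the minus strand, the GPC3 probe at chrX:132730476-132730535 on the minus strand, and the AFP probe at chr4:74321349-74321408 on the plus strand, of which the first 30 bases are shown.
ALB: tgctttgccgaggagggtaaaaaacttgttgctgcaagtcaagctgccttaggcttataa
APOA1: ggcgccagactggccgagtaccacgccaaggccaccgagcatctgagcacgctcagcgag
GPC3: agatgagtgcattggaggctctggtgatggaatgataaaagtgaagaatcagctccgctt
AFP: ggaagagaagacaaaacgagtctttcattc
The GPC3 probe printed here was the dimmer of the gene's 2 probes, with a signal of 17800 at percentile 97.34. The APOA1 gene also had a probe printed in 10 spots, which gave 6899 at percentile 94.05. Both probes of each gene were bright.

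Among the 11 lists of liver genes, 252 genes had a probe, and 239 of them were well above background, which is 94.8% against 77.6% of all genes. Of the 252, 98 were bright, or 38.9% against 17.2%. The median percentile of their levels was 83.2, against 66.5 over all genes with a RefSeq symbol. Among the 98 bright ones are ALDOA, PKM and HK2, glycolytic isozymes that are not particular to the liver. Members and lists were chosen with earlier results of these data known, so these contrasts with all genes describe the lists and test nothing. In 7 lists of genes of other cell types and organs (stellate cells, endothelium, leukocytes, nerve, muscle, pancreas, and lung, kidney and thyroid), 117 genes had a probe, 62 were well above background and 1 was bright, with a median percentile of 32.7. The intestinal and erythroid lists were not among these 7, and had 14 of 18 and 11 of 16 genes detected and 3 and 0 bright, so the pooled counts depend on which lists are taken. On the knockdown arrays 98 to 105 of the same liver genes were bright and 229 to 238 detected, and 47 to 56 of the genes of other cell types were detected. The mock array had the highest detected counts in both.

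**Figure D2:**
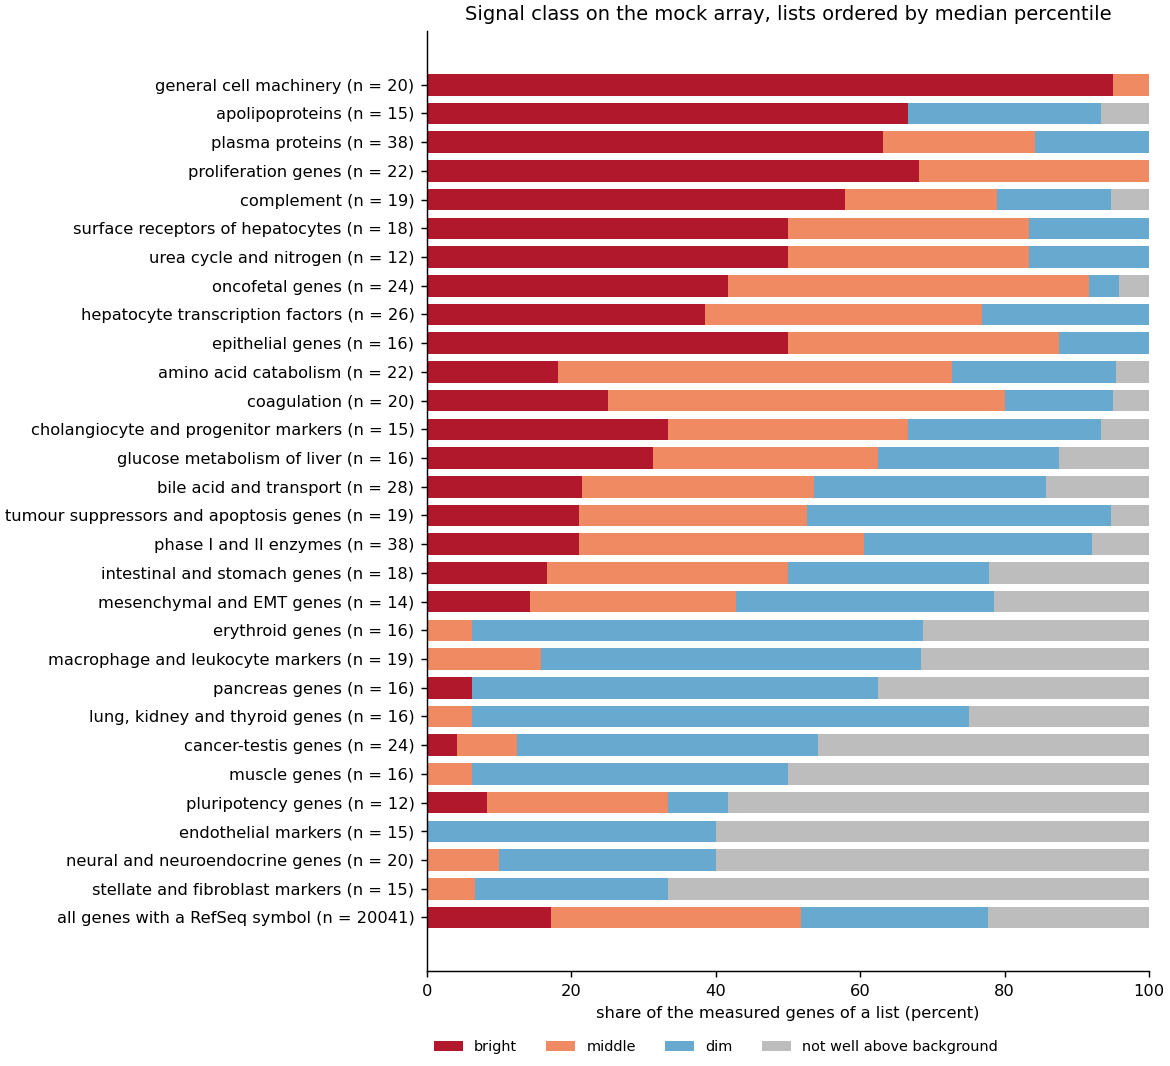
Share of the measured genes of each list (horizontal axis, percent) that were bright, middle, dim or not well above background on the mock array, with lists ordered by the median percentile of their members and all 20041 genes with a RefSeq symbol in the lowest bar. General cell machinery, proliferation genes, apolipoproteins and plasma proteins have more than 60% bright members, and the endothelial, neural and stellate lists at the foot have none.

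All 38 measured plasma proteins were well above background and 24 were bright. After ALB the highest signals were those of AHSG, the carrier fetuin-A, with 147499, AGT, the precursor of angiotensin, with 103257, and RBP4, the carrier of retinol in blood, with 75640, all above percentile 99.4. CRP, the acute phase protein, was named after its value had been seen: 1 of its 2 probes gave 25.6 at percentile 31.54 and was well above background on all 4 arrays, and the other, with 6.98, was detected on none of the arrays.

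Of 15 measured genes of apolipoproteins and lipoprotein assembly, 10 were bright, 4 dim and 1 not well above background, with none in between. APOA2, of high-density lipoprotein, gave 233846, APOE, the ligand of lipoprotein receptors, 158493, and APOM, which carries sphingosine phosphate, 22547. APOF, a minor apolipoprotein that inhibits lipid transfer, gave 4.53 at percentile 8.57 and was detected on none of the arrays.

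Of 20 measured coagulation genes 19 were detected and 5 bright, and their median percentile was 81.5, against 95.1 for the plasma proteins. F2, prothrombin, gave 28066, PROC, protein C, 8010, FGG, the fibrinogen gamma chain, 7352, and F10, factor X, 4624. F9, factor IX, gave 4.33 and was detected on none of the arrays.

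Complement was detected with 18 of 19 measured members, 11 of them bright. C3, the central component, gave 62135, C8G 13997, CFI, the protease that inactivates C3b, 10900, and C4BPA, an inhibitor of the classical pathway, 10050. C9, the pore-forming component, gave 5.83 and was not detected on any array, although C8G, C8A and C8B of the same membrane attack complex were, the last 2 named after their values had been seen. The count of bright complement genes fell to 7 when a gene was given the median of its probes.

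Neighbouring genes of one family had signals of very different classes. In the RefSeq gene order ALB, AFP and AFM follow each other directly. AFM, afamin, the adult vitamin E carrier of this family, was dim with a signal of 30.3 and an SD of 0.56 log2 units between 2 spots, at percentile 34.2. It stood at 49.9 with shR-467, at 37.7 with shR-554 and at 32.5 under shR-749. On the last of these arrays it was not well above background. The gene next to AFP thus lay below the middle of the probes on every array, though only just with shR-467. GC, the vitamin D-binding protein, which belongs to the same family but lies apart from these genes, was bright with 44800. The AFM probe, from coding sequence at chr4:74367576-74367635 on the plus strand, is shown beside the ALB and AFP probes above because this contrast rests on it.
AFM: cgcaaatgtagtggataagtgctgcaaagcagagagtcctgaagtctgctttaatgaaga
The same was seen in 2 clusters of apolipoprotein genes. Between APOE and APOC2, both bright at percentiles 99.88 and 97.26, APOC4 was dim with 100.2 at percentile 52.9, and APOC1, on the other side of APOC4, was bright at 97.02. In the other cluster APOA1 and APOC3 were bright at 97.90 and 95.82, while the next genes, APOA4 and APOA5, were dim at 64.6 and 56.2. Over the 4 arrays APOC4 stayed between 52.9 and 57.9 and APOA5 between 54.7 and 65.4. APOA4 was less steady, since its signal of 248 on the mock array was the lowest of the 4, and it was in the middle class on the other arrays, at percentiles between 73.5 and 77.9.

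Transcription factors of the hepatocyte were detected throughout, 26 of 26, with 10 bright. Among the highest signals were those of CEBPA with 23050 and CEBPB with 8483, factors of the C/EBP family, and of RXRA, the partner of many nuclear receptors, with 6992. HNF4A, the nuclear receptor at the centre of this network, was named after its value had been seen. Its single probe was dim with 108 at percentile 54.0, and lay between 53.7 and 59.3 on the 4 arrays. NR1I2, the xenobiotic receptor PXR, was the dimmest of the list with 30.9 and was well above background on 2 of the 4 arrays.

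Promoters of liver genes are known to carry elements of the kind GTTAATNAT, read on the other strand as ATNATTAAC. The 250 bases before the start of each gene were searched for these letters on both strands, in promoters from the RefSeq table of build GRCh38.p14. The albumin and alpha-fetoprotein promoters, the best-known examples, each hold 1 match, whose first base lies 61 bases before the start in ALB and 132 in AFP. They are shown over 100 bases each, ALB at chr4:73404186-73404285 and AFP at chr4:73436049-73436148, both on the plus strand, with the match in capitals.
ALB promoter: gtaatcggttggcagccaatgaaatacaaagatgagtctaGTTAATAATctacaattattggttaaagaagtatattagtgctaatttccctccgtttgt
AFP promoter: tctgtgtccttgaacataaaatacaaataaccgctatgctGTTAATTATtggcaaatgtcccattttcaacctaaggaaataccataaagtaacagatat
Of the 252 measured liver genes 190 had a promoter in the table, and 9 of these, or 4.74%, held a match, against 185 of all 27305 promoters, or 0.678%. The element was known from liver promoters, ALB and AFP among them, so this contrast was in part fixed beforehand and tests nothing. The 9 did not share a class. They were ALB, AFP and C4BPA among the bright genes, FGA, F13B, PRODH2 and SLCO1B3 among the middle ones, SLCO1B1 among the dim and G6PC among those not well above background. Of the genes of other cell types and organs, 74 had a promoter in the table and 0 held a match. With a share of 0.678% over all promoters, 0 among 74 does not set these genes apart. A match is a run of letters and not a measured binding site.

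Of 24 measured fetal and oncofetal genes 23 were detected and 10 bright, with a median percentile of 88.7. IGF2, the fetal growth factor, gave 218000, H19, the noncoding RNA that lies next to it and is imprinted with it, 97700, and MDK, the growth factor midkine, 44647. GPC3 followed with the signal given above. DLK1, a membrane protein of hepatoblasts, gave 14548 with 1 probe and 1720 with the other, at the percentiles 96.82 and 84.51. The 2 IGF2 probes were further apart, at 218000 and 3409. LIN28A, listed on the array as LIN28, gave 4.31 and was detected on none of the arrays, while its paralog LIN28B, named after its value had been seen, was bright with 7094.

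RNA signals of nitrogen metabolism genes, those of the urea cycle among them, were detected for 12 of 12 members, 6 of them bright. GLUD1, glutamate dehydrogenase, gave 14000, ASS1, argininosuccinate synthetase, 5960, the citrin carrier SLC25A13 5211, and CPS1, which starts the cycle, 4564. OTC, which makes citrulline, was the dimmest member with 90.1 on the mock array. Its signal was 307 with shR-467 but 45.8 on the shR-554 array and 47.8 on that of shR-749, and this spread of 28.1 percentile points between arrays was among the widest of the liver genes. Of 22 genes of amino acid breakdown 21 were detected and 4 bright. These shares were 95.5% and 18.2%, against 77.6% and 17.2% of all genes with a RefSeq symbol. The bright ones were CBS, of transsulfuration, with 38044 and DDC, the aromatic amino acid decarboxylase, with 13100. HGD, of tyrosine breakdown, with 9222 and MAT1A, the adult methionine adenosyltransferase, with 4649 were the others. TAT, tyrosine aminotransferase, was detected on none of the arrays, with 4.35 on the mock array.

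Of 16 measured genes of glucose metabolism, 14 were detected and 5 bright, led by ALDOA with 49099, PKM, listed as PKM2, with 13186, PYGL, the liver glycogen phosphorylase, with 5077 and HK2 with 4899. ALDOA, PKM and HK2 are glycolytic isozymes found in fetal and growing tissue, among others. PKLR, the pyruvate kinase of adult liver, was named after its value had been seen and was in the middle class with 623. G6PC and PCK1, the gluconeogenic enzymes that make free glucose and phosphoenolpyruvate, were detected on none of the arrays, with 14.5 and 8.37 on the mock array. The second HK2 probe, at percentile 24.1, was not well above background, and the array annotation places both HK2 probes on another chromosome than the gene.

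Drug-metabolising enzymes were the liver list with the lowest median percentile, 69.6, and 38 of its 42 genes had a probe. Of these 35 were detected and 8 bright, or 92.1% and 21.1%, against 77.6% and 17.2% of all genes with a RefSeq symbol. UGT2B10, a glucuronosyltransferase, gave 39500, ALDH1A1, retinal dehydrogenase, 34050, and CYP2B6, of drug oxidation, 33100. The CYP2B6 signal came from 1 of its 2 probes, and the other was dim at percentile 62.3. The highest signal of the list, 154000 for CYP2W1, came from a probe with a repeat sequence described below. CYP2C8 and ADH1B, of the adult liver, were detected on none of the arrays, with 11.2 and 4.41 on the mock array. CYP3A4 and CYP2E1, main cytochromes of adult liver, were named after their values had been seen and were dim, with 45.3 and 27.2.

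Bile acid and transporter genes were likewise uneven. Of 28 measured, 24 were detected and 6 bright, or 85.7% and 21.4%, against 77.6% and 17.2% of all genes with a RefSeq symbol. Highest were ABCC6, a transporter of the basolateral membrane, with 11950 and CYP27A1, of the acidic pathway of bile acid synthesis, with 11632. HSD3B7, which acts in both pathways, followed with 5150 and SLC27A5, which activates bile acids, with 4250. ABCB11, the bile salt export pump, AKR1D1, which reduces the steroid ring, and CYP8B1, which makes cholic acid, were detected on none of the arrays, with 5.36, 5.54 and 4.83 on the mock array. ABCG8, of the sterol exporter of bile, gave 9.42 and was detected on 1 array, not the mock one. SLC10A1, the bile salt importer NTCP through which hepatitis B virus enters, was named after its value had been seen: it was dim with 30.7 at percentile 34.5, and lay between 34.5 and 41.5 on the 4 arrays.

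Receptors of the hepatocyte surface were detected with 18 of 18 members, 9 of them bright. ASGR2 and ASGR1, the 2 subunits of the asialoglycoprotein receptor, stood side by side with 33500 and 32197, TFRC, the transferrin receptor, gave 31413 and SCARB1, the receptor of high-density lipoprotein, 30698. GCGR, the glucagon receptor, was dim with 143, and its signal of 1185 with shR-749 put it 30.8 percentile points above its lowest array.

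**Figure D3:**
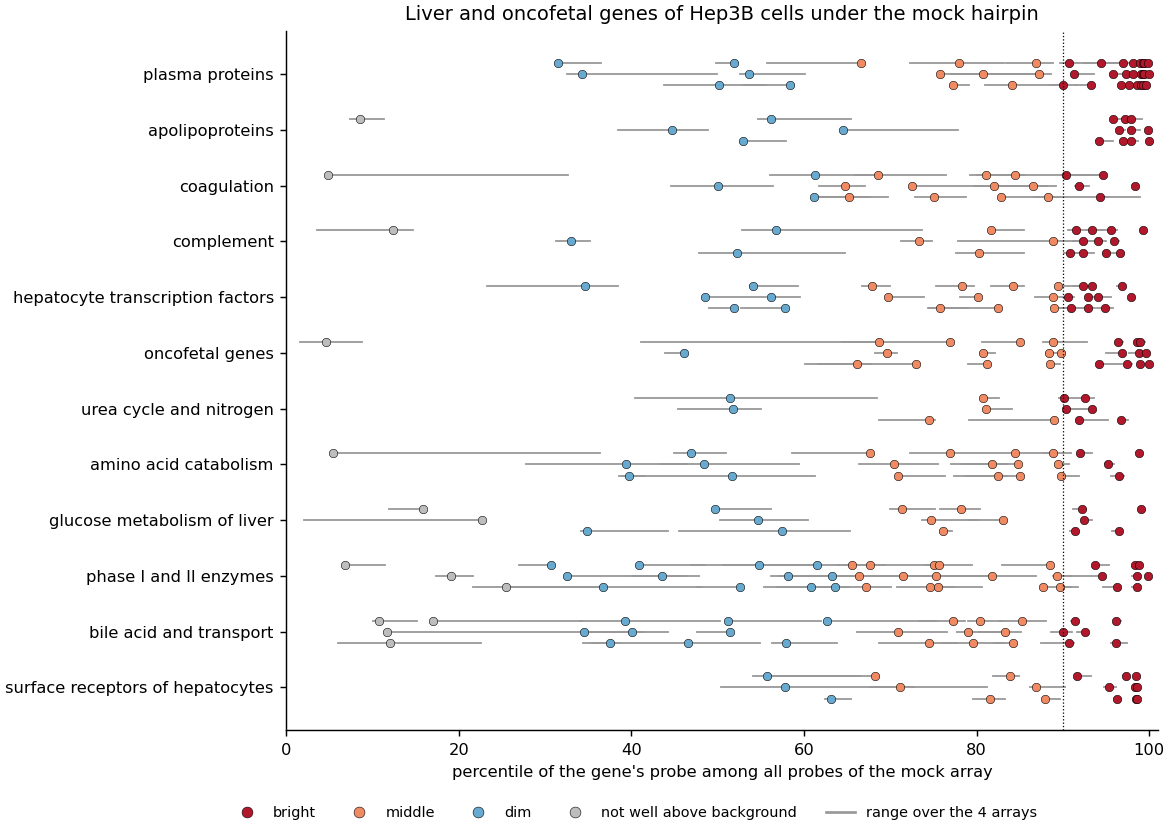
Percentile of each measured gene of 12 liver and oncofetal lists among all probes of the mock array (points, coloured by class; rows are lists), with grey lines from the lowest to the highest percentile of the same probe over the 4 arrays and the 90th percentile dotted. The lines of bright genes have a median length of 1.08 points and those of dim genes 9.35, but percentiles are compressed at the top, so a short line there can hold a large change of signal.

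Hepatoma cells are epithelial, and markers of the biliary and progenitor lineages were read to see which of them the culture shared. All 16 epithelial genes were detected and 8 bright, led by KRT18 with 67800, DSP, the desmosomal plaque protein, with 16944, KRT8 with 11942 and CTNNB1, beta-catenin, with 7682. The other KRT8 probe was dim with 127. Of 15 cholangiocyte and progenitor markers 14 were detected and 5 bright: EPCAM, the epithelial adhesion molecule of hepatic progenitors, with 52310, KRT19, the keratin of bile ducts, with 29250, CD24 with 20400, CLDN4 with 10249 and SSTR2, named after its value had been seen, with 4920. In the mesenchymal list 11 of 14 were detected, or 78.6% against 77.6% of all genes with a RefSeq symbol. VIM, vimentin, with 13749 and LOX, lysyl oxidase, with 3996 were bright, or 14.3% against 17.2%. On the shR-554 and shR-749 arrays 1 member of this list was bright. The cadherin CDH2 gave 1365 and SNAI1 962, in the middle class, and ZEB2, TWIST2 and SNAI2 were detected on none of the arrays.

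Genes of stellate cells, endothelium and blood cells were mostly dim or not detected. Over all genes with a RefSeq symbol 25.9% were dim and 22.4% not detected. None of the 15 stellate and fibroblast markers was bright and 10 were detected on none of the arrays, with the defining collagens COL1A1 and COL3A1 at 5.87 and 6.59. DES, desmin, had the highest signal with 385, then LUM with 125, RGS5 with 44.0 and COL1A2 with 35.7. Of 15 endothelial markers 6 were detected, all dim, the highest being PECAM1 with 138, CDH5 with 77.5, CLEC4G with 48.7 and VWF with 36.6, and 9 were not detected on any array, among them TEK, TIE1, CLDN5 and ERG. The summed signal of the endothelial list was between 445 and 551 over the 4 arrays and that of the stellate list between 673 and 979. Of 19 markers of macrophages and leukocytes 13 were detected, or 68.4% against 77.6% of all genes with a RefSeq symbol. CD79A with 1391, AIF1 with 539 and FCER1G with 471 were in the middle class, followed by CD3D with 116, and GNLY, MPO, NKG7 and CD163 were among the 6 not detected on any array. PTPRC, the antigen CD45 of all leukocytes, gave 81.5 with its brightest of 5 probes, the lowest being at percentile 7.79. In the erythroid list 11 of 16 were detected, or 68.8% against the same 77.6%, and 0 were bright. EPOR, the erythropoietin receptor, was highest at 348, then SLC4A1 at 193, KLF1 at 188 and HBG1 at 187. HBB, AHSP, GATA1 and GYPB were not detected on any array.

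In the intestinal and stomach list 14 of 18 were detected and 3 bright. These shares, 77.8% and 16.7%, were near the 77.6% and 17.2% of all genes with a RefSeq symbol. Bright were FABP1, the fatty acid carrier shared by liver and gut, with 75744, and VIL1, villin of the brush border, with 31447. CDX2, the intestinal homeobox factor, was bright with 3910. TFF3, a trefoil factor of mucus, followed with 787, and REG4, LCT, GKN1 and FABP2 were detected on none of the arrays. CDX2 was just above the 90th percentile here and just below it on the other arrays, between 86.7 and 89.6. The pancreas list had 10 of 16 detected and 1 bright, the secreted lectin REG1A with 32696, whose percentile fell from 98.59 under shR-MOCK to between 88.45 and 93.68 with the other hairpins. CEL with 207, CELA3A with 204 and IAPP with 142 were dim, and PDX1, PNLIP, CTRB1 and NKX6-1 were not detected on any array. Of 20 neural and neuroendocrine genes 8 were detected and 0 bright, with MBP highest at 2470, SNAP25 at 430, SYT1 at 221 and TH at 155, and NEFM, GAP43, NEUROD1 and INSM1 were not detected on any array. Of 16 muscle genes 8 were detected, TNNT3 with 267, MYH2 with 140, TNNI3 with 129 and then MYOG being the highest, and MYF5, RYR1, PAX3 and ACTC1 were not detected. Of 16 genes of lung, kidney and thyroid 12 were detected, or 75% against 77.6% of all genes, and 0 were bright. Only FOXJ1, of ciliated cells, with 878 exceeded the median of detected probes. UMOD and SCGB1A1 had 118 and 111, and NKX2-1, SLC12A1, TSHR and NPHS1 were not detected on any array.

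Of 12 pluripotency genes 5 were detected. DNMT3B, the de novo DNA methyltransferase, was bright with 10598, TDGF1 with 718, UTF1 with 472 and POU5F1 with 405 were in the middle class, and ZFP42, DPPA2, DPPA4 and LIN28A were not detected on any array. Of 24 cancer-testis genes 13 were detected. MAGEA6 was bright with 9525 and MAGEA12, with 3420, lay just under the 90th percentile at 89.96, followed by PRAME with 258 and MAGEA4 with 223, while MAGEA10, SSX1, DAZL and DDX4 were not detected on any array. Members of the MAGEA family, like ORM1 and ORM2 or the UGT1A transcripts, are near-identical in sequence, so that a probe may read more than the gene it is named for.

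Proliferation genes were detected without exception, 22 of 22, with 15 bright and a median percentile of 93.7. The replicative helicase subunits MCM7 and MCM3 gave 66903 and 36600, BIRC5, survivin, 27895 and TYMS, thymidylate synthase, 21945. In the control list of general cell machinery 19 of 20 were bright, led by EEF1A1 with 259969, ACTB with 202499, RPS6 with 186009 and RPLP0 with 160387, and TBP, the TATA-binding protein, was in the middle class with 1398.

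RB1, the gene that the study gives as lacking in this line, had a single probe. It was well above background on all 4 arrays, with a dim signal of 239, an SD of 0.10 log2 units between 9 spots and percentiles between 63.5 and 64.1, so its signal did not show the absence of this RNA. What the probe bound was not tested. Of the list of tumour suppressors and apoptosis genes, 18 of 19 were detected and 4 bright. These shares were 94.7% and 21.1%, against 77.6% and 17.2% of all genes with a RefSeq symbol. Bright were CDKN2A, which encodes p16 and ARF, with 33893, BAX with 10936, the death receptor TNFRSF10B with 6069 and BBC3 with 5099. CDKN1A, which encodes p21 and was named after its value had been seen, was dim with 248, and TP63 was not detected on any array. UNC50 itself, the target of the other hairpins, was bright in the mock cells with 5010 at percentile 92.4 in its single spot, and stood between 75.4 and 81.3 on the knockdown arrays.

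The 25 brightest gene names of the array had signals from 186145 to 382000. Of these, 13 encode ribosomal proteins, among them RPS27, RPS21, RPS2, RPL13, RPL23A, RPL23, RPS19, RPS13, RPL19, RPS28 and RPS26. The elongation factor EEF1A1, the cytoskeletal ACTB, the cytokine MIF and LOC100008589, a large ribosomal RNA, are also of the general kind. The liver and its fetal program gave ALB at rank 8, APOA2 at rank 9 and IGF2 at rank 13. The remaining 5, SNAR-A3 at rank 1, NAT11, PQLC2, GPR155 and FUT6, are a small noncoding RNA of a multicopy family and genes for an acetyltransferase, a lysosomal transporter, a membrane receptor and a fucosyltransferase. The order held in part, since 16 of the 25 were among the 25 brightest on all 4 arrays and the lowest rank any of them took was 130, for RPS26 with shR-749.

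Those 5 probes share a feature of sequence. Alu elements are short repeats that fill much of the human genome and lie in many transcripts. A search on both strands for 5 pieces of the Alu consensus of 9 letters each, GTAATCCCA, AGGCTGAGG, CCAGCCTGG, AACCCCGTC and CTCCGTCTC, found at least 1 piece in 189 of 42405 probes, or 0.446%, but in 7 of the 100 brightest and in all of the 5 above. The array annotation places the NAT11 and GPR155 probes on another chromosome than that of the gene in the RefSeq table, as it does for 8 of the 21 brightest names that have both positions, 5 of them ribosomal protein genes. Where a gene had a second probe without a piece, that probe was far lower. NAT11 gave 338000 with the first and 279 with the other, GPR155 gave 195000 against 56.0 and 45.6, and FUT6 186145 against 56.0. Over the 37 genes that had probes of both kinds, the probe with the piece was brighter in 24, by more than 10-fold in 11, and the probe without it was brighter by more than 10-fold in 2. Some of the lower probes were not well above background, and different probes bind with different strength. A run of 9 letters can also occur outside Alu elements, and only 10 of the 189 probes held 2 or more pieces. Of the probes with a piece 21.2% were bright, against 9.95% of those without. Whether the repeats make these probes bright was not tested. In the liver lists the level of CYP2W1 and that of ABCB4, with 1004, came from such a probe, and without those probes 97 of the liver genes were bright in place of 98.

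**Figure D4:**
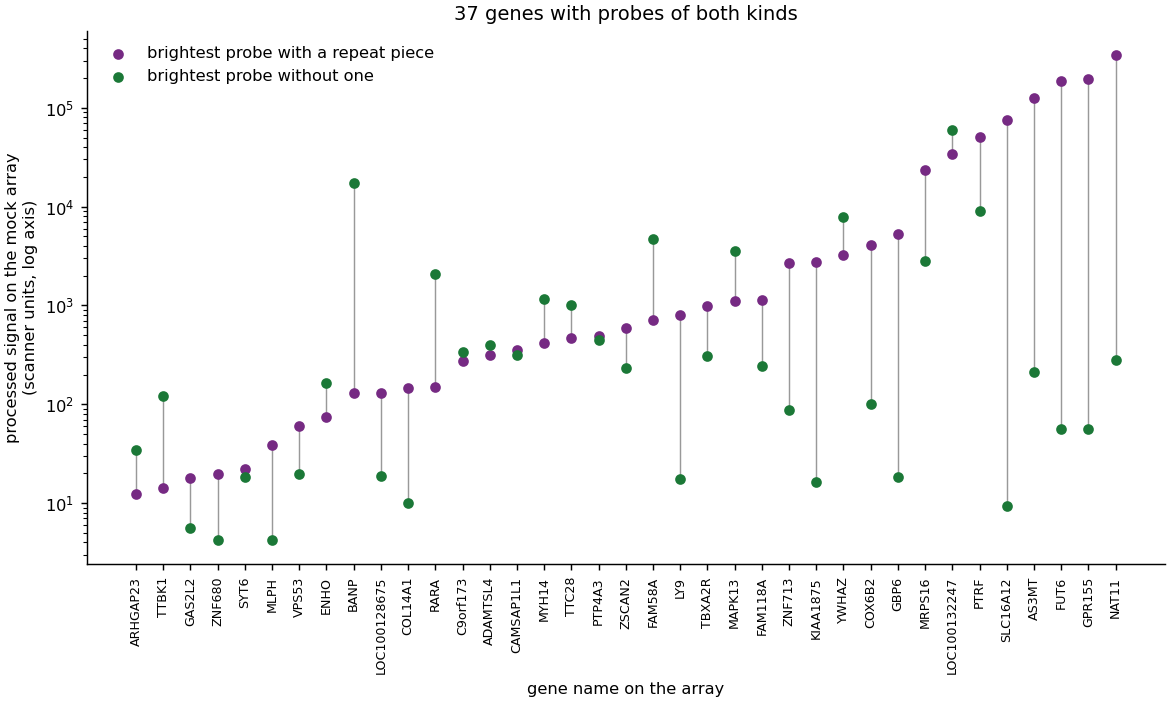
Processed signal on the mock array (vertical log axis, scanner units) of the brightest probe with a repeat piece and of the brightest probe without one, joined by a line, for the 37 genes with a RefSeq symbol that have both (horizontal axis, ordered by the first). At the right end NAT11, GPR155, FUT6, AS3MT and SLC16A12 lie more than 100-fold apart, while BANP and RARA are apart in the other direction.

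Apart from repeats, probes of one gene often differed. Of 143 listed genes with more than 1 probe, 14 had probes more than 40 percentile points apart, and the median gap was 15.3 points. MASP1, HNF4G, PCK2, HK2, ADH6, ERBB3, KRT8, PTPRC, SLC4A1, MBP, MUC2 and SSX2 were among these 14. Their class here is that of the brightest detected probe, and another probe of the same gene would have given another class or, for some, no detection.

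The order of signals was close on the other 3 arrays. Across all probes of an array, which are not independent replicates, the Spearman coefficient of the mock array was 0.982 with the shR-467 array, 0.973 with that of shR-554 and 0.978 with that of shR-749, and Pearson's coefficient of the log2 signals 0.988, 0.982 and 0.984. All arrays lay on 1 slide and carry the same probes, whose binding strengths they share. Of the 100 brightest probes 93, 89 and 89 were also among the 100 brightest there. The class was the same on another array for between 94.2% and 95.2% of the bright probes, between 78.1% and 84.2% of the dim ones and between 95.2% and 97.0% of those not well above background. The order within a class was closest among bright probes, with Spearman coefficients between 0.957 and 0.969, and nearly as close among middle ones, with 0.947 to 0.960. Among dim probes they were 0.891 to 0.899 and among those not well above background 0.531 to 0.708. The classes span unlike ranges of signal, on which such a coefficient also depends.

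Of the 275 liver and oncofetal genes 168 varied by less than 5 percentile points over the 4 arrays and 11 by more than 20. For bright genes a narrow range does not show that the signal held, because percentiles are compressed at the top: FGG ran from 7352 to 40831 within 4.61 points. The 10 with the widest range included TAT, GCGR, ABCB11, OTC, F9, AKR1B10, AGXT2, C6 and G6PC, and 5 of the 10 were well above background on every array. AKR1B10, an aldo-keto reductase raised in liver tumours and the only one of the 10 in the middle class, gave 354 under the mock hairpin and 43.2 with shR-467, then 60.4 on the shR-554 array and 202 on that of shR-749. AGXT2, of glyoxylate metabolism, gave 91.8, 169, 50.7 and 39.0, and C6, of complement, 132, 496, 120 and 298, in the same order of arrays. AKR1B10 was thus highest under the mock hairpin, while for AGXT2 and C6 the mock array lay between the others.

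The 3 fibrinogen genes, which lie side by side, moved in the same order and were picked out after their values had been seen. FGB gave 1414 under the mock hairpin, 1934 with shR-467, then 6719 on the shR-554 array and 9069 on that of shR-749. FGA gave 502, 703, 1744 and 2660, and FGG 7352, 9227, 19442 and 40831. The mock array was the lowest of the 4 for all 3 chains. AFP also had its 2 highest signals with shR-554 and shR-749, at 81935 and 94749, against 32585 with shR-467. HP, haptoglobin, instead had a single high array, with 19536 on shR-467 against 3810, 4134 and 4610 on the mock, shR-554 and shR-749 arrays. These signals are not scaled between arrays, whose 75th percentiles of probe signal ran from 561 to 821, and with 1 array for each hairpin the spread between cultures is not known.

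**Figure D5:**
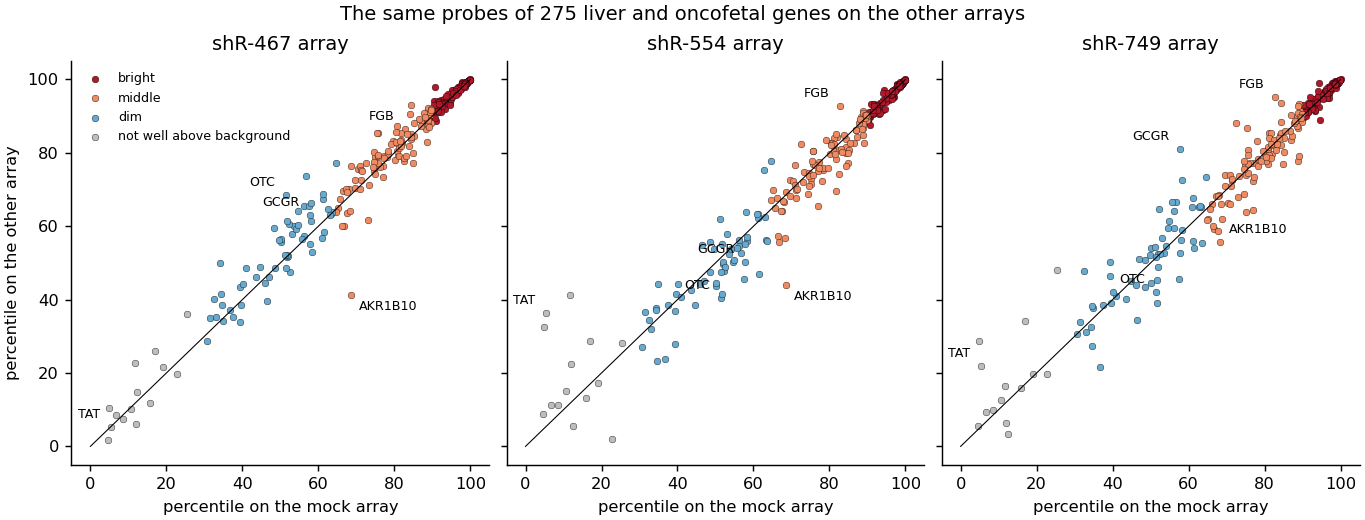
Percentile of the probes of the 275 liver and oncofetal genes on the mock array (horizontal axis) and on each knockdown array (vertical axis, 1 panel each), coloured by the class on the mock array, with the line of equal percentiles. Bright genes lie on or near the line, and AKR1B10 lies far below it at 41.2 with shR-467 and 43.9 with shR-554 against 68.7 on the mock array.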

How the data were processed

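Total RNA of Hep3B cells was labelled with Cy3 and hybridised to 1-colour Agilent arrays, 1 array for the mock hairpin and 1 for each UNC50 hairpin. The authors deposited scanner tables made with Agilent Feature Extraction 10.7.1.1, which list the raw and background intensity of a spot and its background-subtracted processed signal, beside marks for outliers and for signals well above background. Log2 values processed by the authors were deposited too and served only as an alternative.

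Control spots and between 254 and 466 outlier spots per array were left out, and the log2 processed signals of a probe's spots were averaged. Percentiles were taken within each array, so no scaling between arrays was needed. Gene symbols were updated through the RefSeq table of GRCh38.p14, which named 26485 of the 42405 probes. The 29 lists held 576 genes, of which 564 had a probe. The other 12, such as C4A, CYP2A6 and HBA1, had no probe under that name in the tables used here. Members and lists were chosen with earlier results of these data known. The genes named were the 4 markers, UNC50 and RB1, the 25 brightest names, up to 4 members of each list with the highest signals and up to 4 not detected, and the 10 liver and oncofetal genes with the widest range between arrays. Genes outside this rule were named after their values had been seen, and some genes and sequences are not reported here.

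The number of arrays limits the precision, and no test was made. The steps were tested on simulated spots. Python 3.11.15, pandas 2.3.3, scipy 1.17.1 and limma 3.58.1 (normexp, offset 50) were used.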

Additional observations from a re-analysis of the deposited data

How the results depend on the processing

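No paired analysis was possible because each hairpin has 1 array. With normexp, the authors' processed values or outlier spots kept, the widest shift among the percentiles of AFP, ALB, APOA1, GPC3, AFM and GC was that of AFM, from 34.2 to 33.0 with normexp. The share of probes well above background was 70.6%, and became 88.7% with the software's weaker mark for a positive and significant signal and 71.4% when any marked spot sufficed. Over gene names the share was 72.4%, and became 90.2% and 73.2% under the same settings and 77.6% over names matched to RefSeq. The Spearman coefficients with shR-554 and shR-749 became 0.984 and 0.984 over the probes detected on each of the 4 arrays. Of the 25 brightest gene names 13 remained when a gene was given the median of its probes, and 20 when probes with a repeat piece were left out, an alternative chosen after seeing the data. The 1 bright gene of other cell types and organs, REG1A, was not bright on the shR-749 array, which left 0. Of 319 counts of single lists under the alternatives, 307 stayed within 1.5 times and 12 did not, among them the muscle genes detected, 13 in place of 8 with the weaker mark. Dim and undetected genes are limited by signal over background, and single arrays give no spread between cultures.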
